A study of Homo sapiens with 23 samples.

Results

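The genomic places of LSD1 at day 0 were compared between SH-SY5Y cells with an shRNA against the isoform LSD1+8a and SH-SY5Y cells with a control shRNA, each mapped by ChIP-seq. SH-SY5Y is a neuroblastoma line of human origin. All peaks of both deposited lists were taken, 27130 of the 52708 peaks in the 5 lists used. The control list held 16882 peaks and the knockdown list 10248. The series has 23 samples on LSD1, LSD1+8a, supervillin (SVIL) and dimethylated lysine 9 of histone H3 during neuronal maturation. Both groups were infected cells from the same line, grown by a protocol of 4 days in 10 µM retinoic acid followed by 3 days in brain-derived neurotrophic factor (BDNF) at 50 ng/mL, and both were sampled at B0, the labels' name for day 0 of BDNF. The same LSD1 antibody was used in both groups. Each group was 1 library, so the differences given here have no replicate check and were not tested. The labels do not say whether infected cells were selected, and neither the loss of LSD1+8a nor the antibody's binding to each isoform could be checked in peak lists. No source used here gives the depth of either library, and a shallower library would also give fewer peaks, so depth and knockdown cannot be told apart in the length of a list.

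LSD1, also called KDM1A, is a demethylase that removes methyl groups from lysines of histone H3, and it usually works with CoREST and histone deacetylases at promoters and enhancers. LSD1+8a is a splice form found in neurons, in which a small added exon sits in the catalytic domain. Supervillin binds actin, and the series design counts it as this isoform's cofactor. A peak is a stretch in which the authors' caller found more reads, here called tags, than in its background. An antibody against LSD1 as a whole can bind places held by either form, so these lists show where LSD1 protein was found and not which form was there.

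In the full lists, more of the control places of LSD1 were missing from the knockdown list than were kept in it, while most knockdown places were also control places. A control peak was called kept when a knockdown peak overlapped it by at least 1 bp and missing otherwise, and a knockdown peak with no control overlap was called new. Of the control peaks, 7111 were kept (42.1%, exact 95% interval 41.4 to 42.9) and 9771 were missing, 57.9% of that list. Of the knockdown peaks, 7109 were kept (69.4%, 68.5 to 70.3) and 3139 were new, 30.6% of that list. With equal numbers of peaks, the highest scoring of each list, the kept shares were 55.4% of control and 55.7% of knockdown peaks. Kept peaks then outnumbered missing ones. Nearly all overlaps were 1-to-1, so lists of equal length must give nearly equal shares. The contrast of 42.1% and 69.4% likewise follows from the lengths of the full lists. The intervals count peaks of 1 library, which are not independent of each other, and cover counting error only. Nearly every kept peak had a single partner, since 51 control peaks and 53 knockdown peaks met 2 peaks of the other list, and 6962 pairs were 1-to-1.

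Missing and new peaks were the small ones of their lists. Kept control peaks had a median of 37 tags (quartiles 27 and 51) over 955 bp, and missing ones had 21 tags (16 and 29) over 752 bp. Kept knockdown peaks had a median of 34 tags (24 and 48) over 830 bp, and new ones had 18 tags (13 and 26) over 617 bp. Missing and new peaks were also less dense, with medians of 27.5 and 29.3 tags per kb, against 36.8 and 39.0 tags per kb in the kept peaks of the same lists. The fold enrichment given by the authors separated the classes less, with medians of 9.99 for kept and 8.94 for missing control peaks, and 9.37 for kept and 8.78 for new knockdown peaks. In all, missing peaks held 236296 of the 539449 tags in control peaks over 7.93 of 15.2 Mb, and new peaks held 65261 of the 346367 tags in knockdown peaks over 2.07 of 8.32 Mb.

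The kept share rose with every decile of tags in both lists. In the control list it went from 7.93% (6.69 to 9.33) among the peaks with the fewest tags to 86.8% (85.1 to 88.4) among those with the most, and in the knockdown list from 21.3% (18.8 to 23.9) to 98.1% (97.1 to 98.9). By tags per kb the control share went from 9.35% to 91.8%, and by length from 13.6% to 65.7%, a narrower span. By fold it was flat over most of the control list, at 37.7% in the lowest decile and 34.1% in decile 4, and reached 75.1% in the highest. A long control peak was kept less often than a short one with many tags. Among control peaks above the upper quartile of 39 tags, 1023 of 1156 peaks of at most 1060 bp were kept (88.5%, 86.5 to 90.3), against 2114 of 2870 longer ones (73.7%, 72.0 to 75.3). The overlap rule itself favours long peaks, which have more bases that another peak can meet.

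**Figure D1:**
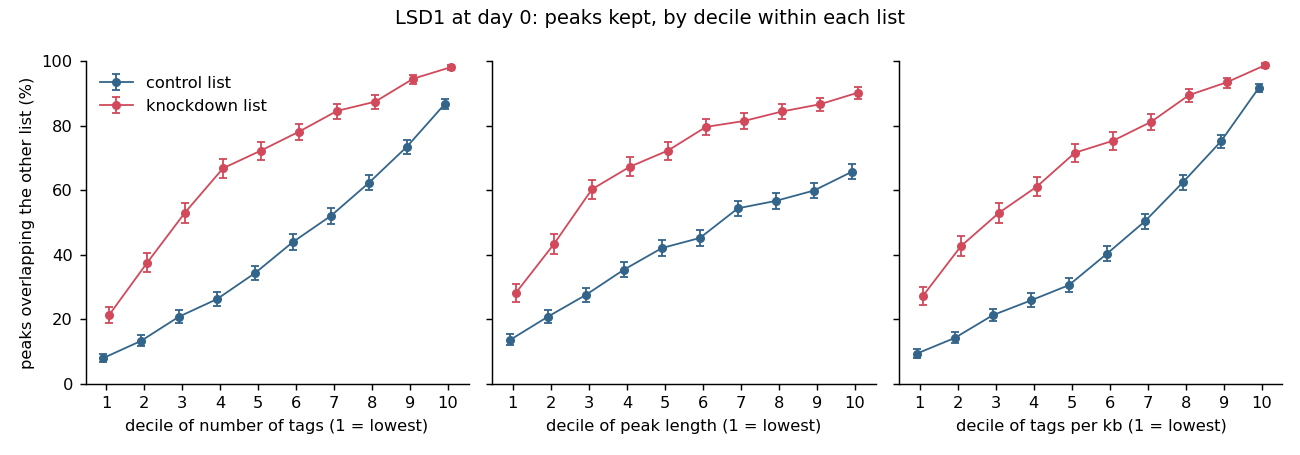
Share of peaks that overlap the other list (y axis, percent, exact 95% binomial intervals) by decile of tags, of length and of tags per kb (x axes, 1 = lowest) for the control and knockdown lists. The share climbs from 7.93% to 86.8% of control peaks and from 21.3% to 98.1% of knockdown peaks across tag deciles, and the control share climbs least across length, to 65.7%.

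The tags of missing peaks overlapped those of the knockdown list. Multiplied by 0.938, the median ratio of knockdown to control tags over the 1-to-1 pairs, missing peaks had a median of 19.7 tags. The ratio rests on places listed in both libraries and was not measured at missing ones. Scaled in the same way, 2310 missing peaks (23.6%, 22.8 to 24.5) were at or above the knockdown median of 28 tags, and 608 (6.22%) were at or above its upper quartile of 41. New peaks divided by the same ratio gave a similar picture, with 874 of 3139 (27.8%, 26.3 to 29.4) at or above the control median of 26 tags. The lists began at different densities, at 17.4 tags per kb in the control list and 20.1 in the knockdown list, while the lowest score was 50 in both. Whether the input behind each list moved these limits was not tested.

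Most missing control peaks at a fold of at least 50 lay in stretches of 3 genes, while those at a fold of at least 25 were more scattered. The gene names used here come from general knowledge of the hg19 map and not from an annotation of that build, and these stretches were chosen after their values were seen. At a fold of at least 25, 318 of 355 control peaks were kept (89.6%, 85.9 to 92.6). Of the 37 missing ones, 17 lay in stretches within SVIL, MRE11 and TNFRSF10D and 20 lay outside them. Of the 30 control peaks at a fold of at least 50, 9 were missing, 8 of them in these 3 stretches. The remaining one was chr3:17443239-17444110, with 147 tags and a fold of 136. The files hold neither reads nor inputs, so whether the tags of these 3 stretches came from chromatin bound by LSD1 or from other DNA in the control library was not tested, and their counts and folds are given as listed.

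SVIL, on chromosome 10, encodes the supervillin named above. The control list held 20 peaks between 29751111 and 29907510, with 11 to 157 tags each and 835 in all, and the knockdown list held none. The knockdown peak nearest to any of them was 117190 bp away. The strongest were chr10:29839414-29840597 with 157 tags at a fold of 33.5 and chr10:29812286-29813063 with 137 tags at a fold of 73.8. The peaks were short and dense, with medians of 520 bp and 62.4 tags per kb, where all missing peaks had 752 bp and 27.5 tags per kb. Their folds ran from 14.9 to 73.8, with a median of 32.5, so that even the least enriched lay above the 9.3 that was the median of the whole control list. In lists of control cells at day 3, 8 of the 20 overlapped an LSD1 peak, 1 an LSD1+8a peak and 9 a SVIL peak. Over all missing control peaks these shares were 48.7%, 5.66% and 2.90%, so that the first 2 counts were near the background and only that for SVIL was above it. The count of 0 in the knockdown list holds for listed peaks only, since reads below the caller's threshold are not in the files.

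MRE11, on chromosome 11, encodes a nuclease that acts in repair of broken DNA. Its stretch held 6 control peaks between 94153285 and 94180747 and no knockdown peak within 96179 bp. Along the chromosome they had 9, 25, 12, 41, 88 and 156 tags, at folds of 12.6, 15.5, 19.2, 60.7, 132 and 193. Tags and folds were thus highest at the end with the larger coordinates. The median length was 468 bp, and none of the 6 was listed at day 3 by any of the 3 antibodies. In that respect the MRE11 peaks stood apart from those in SVIL and TNFRSF10D.

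TNFRSF10D, on chromosome 8, encodes a decoy receptor for the death ligand TRAIL. It held the missing peak with the most tags, chr8:23004357-23007916 with 1802 tags over 3560 bp at a fold of 218, and chr8:23011175-23012869 with 692 tags over 1695 bp at a fold of 137. The nearest knockdown peak was 77454 bp away. Both places were listed at day 3 by LSD1, by LSD1+8a and by SVIL in control cells. Apart from 1 peak with 2521 tags, the knockdown list held no peak with as many tags as either.

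**Figure D2:**
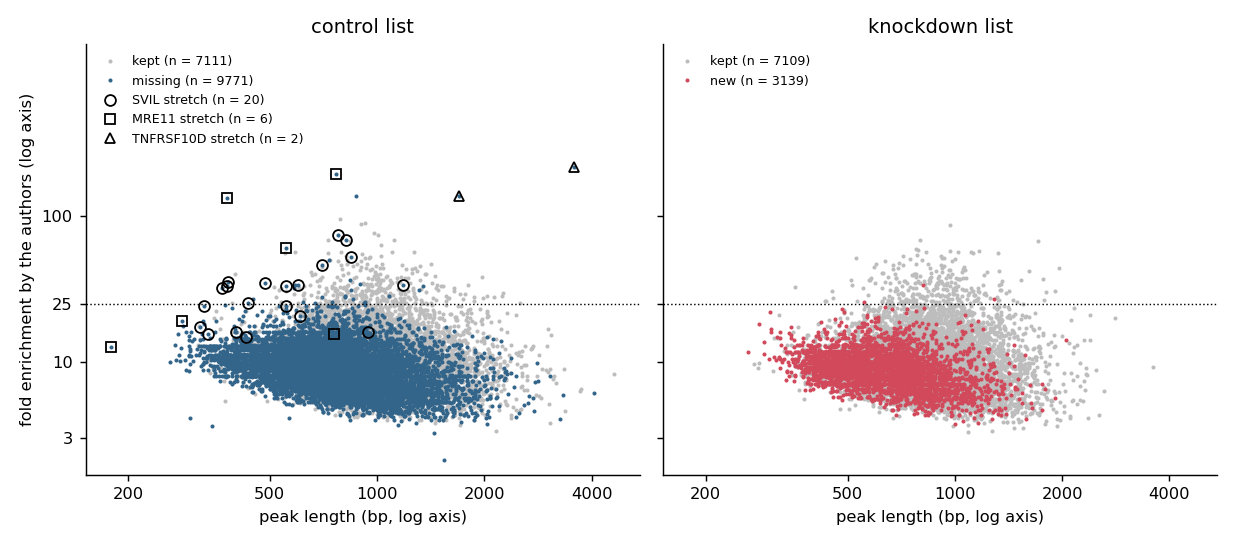
Fold enrichment given by the authors (y axis, log) against peak length (x axis, bp, log) for each peak of the control list (left) and the knockdown list (right), with kept peaks in grey, missing or new peaks in colour, and the SVIL, MRE11 and TNFRSF10D peaks outlined. The dotted line marks a fold of 25, above which 37 of 355 control peaks were missing and 3 of 267 knockdown peaks were new.

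Other missing peaks with many tags were of another kind. The second by tags, chr1:121484006-121485545, had 1263 tags at a fold of only 2.13, and chr2:91760393-91764467 had 227 tags at a fold of 6.16. Both lie near centromeres, where repeated sequence gathers reads, and neither place was in a day 3 list. On chromosome 7, chr7:133520414-133523225 had 187 tags at a fold of 9.82, and chr7:133465470-133468730 had 149 tags at a fold of 4.09. The latter ended 148 bp from a knockdown peak, so that it was missing by the overlap rule although LSD1 was listed beside it. SH-SY5Y cells are known to carry an extra copy of chromosome 7. Tags were not corrected for copy number, and its part in these counts was not tested.

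Missing peaks also came in runs without a kept or new peak between them. With gaps of at most 100 kb, 99 runs held 5 or more missing peaks, and the longest held 24 in chr10:29606169-29981162, around the SVIL stretch, with 938 tags. The next was in and beyond ROR1, which encodes a receptor of Wnt5a that is made in the embryo and in some tumours. Its 11 peaks in chr1:64505088-64748442 had 15 to 32 tags each and 240 in all, at folds of 5.81 to 15.3. Another run covered RGS4 and RGS5, which encode brakes on G-protein signalling, with 9 peaks in chr1:163038284-163144973 of 16 to 64 tags and 339 in all. Their folds ran from 5.33 to 10.1 with a median of 6.5, below the lower quartile of the control list, 7.38. At day 3, LSD1 was listed at 8 of the 11 peaks around ROR1 and at 5 of the 9 at RGS4 and RGS5, and LSD1+8a at 1 and 0 of them. Over all missing control peaks these shares were 48.7% and 5.66%, and no trait of these runs is drawn from such small counts. Runs of kept peaks reached 14 peaks, and 76 held 5 or more. New peaks formed runs of at most 4, and none of 5. The merged order held 9771 missing, 7111 kept and 3139 new peaks, and the number and length of runs depend on these sizes. No difference in clustering between the classes is drawn from them.

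By windows of 1 Mb, the 29 to 30 Mb window of chromosome 10 stood first, with 26 of 28 control peaks missing (92.9%, 76.5 to 99.1). In the 4 windows next in number, each with 18 missing peaks, the missing share was 48.6% to 69.2%, which brackets the 57.9% of the whole list. Only the first of these 5 windows had an interval that lay above it, and it takes in the SVIL stretch with its 20 missing peaks. All 5 were picked for their counts of missing peaks, so their shares and intervals are descriptions and no test.

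New peaks reached at most 88 tags, far fewer than the largest missing ones. The new peak with the most tags was chr17:4869869-4871920 with 88 tags over 2052 bp at a fold of 14.1, and it was also a day 3 peak of LSD1 and of LSD1+8a. Next came chrX:77358961-77360159 with 87 tags at a fold of 16.9, and chr17:78518285-78519204 with 81 tags at a fold of 12.4. Those on chromosome 17 lay 28734 and 29726 bp from a control peak and the one on X lay 123095 bp away, so these 3 were places of their own. By contrast chr2:3382989-3384151, with 65 tags, lay 709 bp from a control peak. Of 267 knockdown peaks at a fold of at least 25, 3 were new. They were chr1:3712956-3713511 with 29 tags, chr1:6614215-6615027 with 32 and chr12:53845446-53846732 with 57. All 3 were at day 3 peaks of LSD1+8a and at none of LSD1. Over all new peaks these shares were 8.51% and 31.1%. With only 3 peaks, picked by their fold, no trait of new peaks is drawn from this. None of the 20 knockdown peaks at a fold of at least 50 was new.

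The longest runs of new peaks had 4 peaks each, and that with the most tags was chr7:132158681-132277359 with 131. The windows with the most new peaks were on chromosomes 17, 11, 16 and 19. The first was the 40 to 41 Mb window of chromosome 17 with 9 of 19 knockdown peaks new (47.4%, 24.4 to 71.1). Its interval takes in the 30.6% of the whole list, as do those of the other 4 windows with the most new peaks. Windows with fewer new peaks were not examined.

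Of the 5 longest runs of kept peaks, 4 lay on chromosome 19, and at least 3 of these cover clusters of zinc-finger genes of the KRAB kind, which encode repressors that bind DNA and silence repeats and other targets. The longest, with 14 control peaks in chr19:37568651-38147328, includes ZNF569, ZNF570 and ZNF571. In that cluster 14 of 15 control peaks were kept, a count that the choice of a kept run fixes. Control peaks had a median of 49 tags, and knockdown peaks of 54.5. The 1 missing peak, chr19:38183018-38183601, had 28 tags at a fold of 32.0, the second highest fold of the 15 after 44.0. In the clusters with ZNF226, ZNF227 and ZNF235 and with ZFP28, ZNF470 and ZNF71, 13 of 14 and 13 of 13 control peaks were kept, with summed tags of 721 against 598 and 661 against 628 in knockdown peaks. These stretches were chosen for being kept, so their counts say nothing of zinc-finger genes elsewhere.

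**Figure D3:**
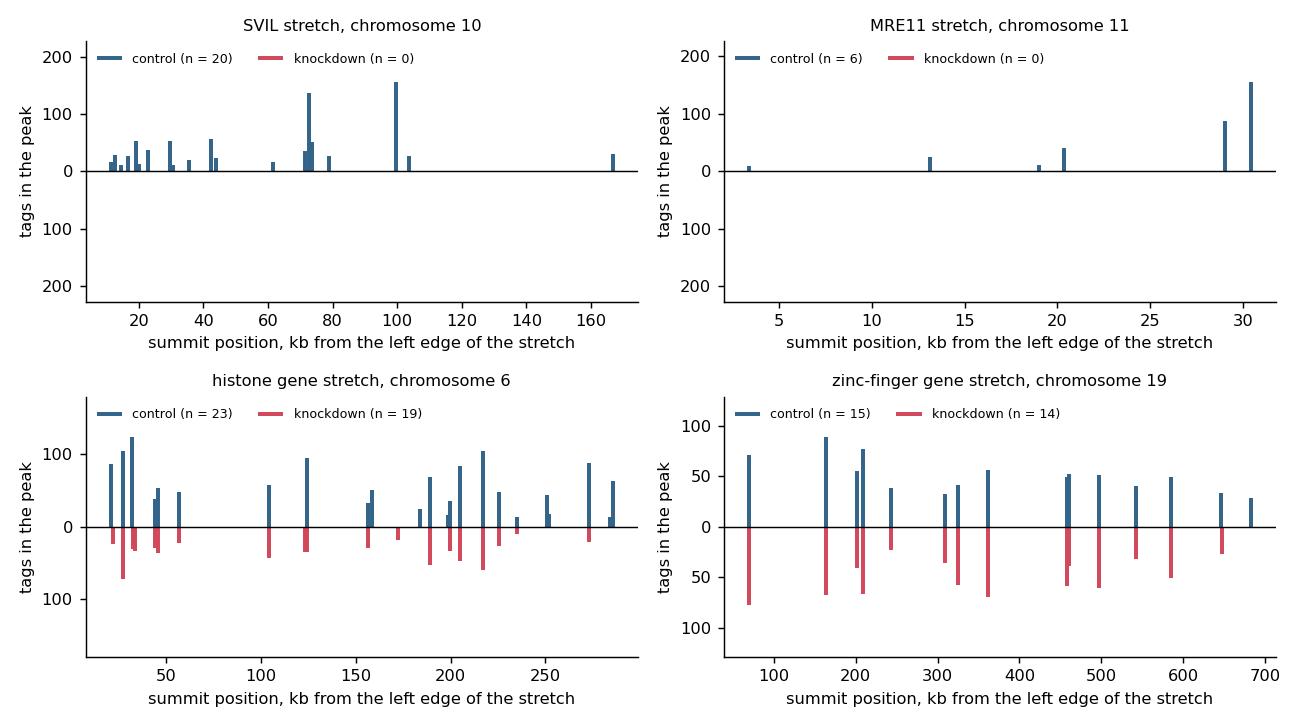
Tags of each peak (y axis) at its summit (x axis, kb from the left edge of the stretch) in 4 stretches, with control peaks drawn upwards and knockdown peaks downwards. The SVIL and MRE11 stretches hold 20 and 6 control peaks and no knockdown peak, the histone stretch 23 and 19, and the zinc-finger stretch 15 and 14.

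Chromosome 19 as a whole had the highest kept share of the autosomes, with 545 of 877 control peaks (62.1%, 58.8 to 65.4). Its peaks held more tags than most, at a median of 31 against 26 over the list, but control peaks of all chromosomes in the same tag deciles would give 48.7%. Chromosome 16 was also above its tags, at 52.5% (48.3 to 56.7) against 41.7%, and so was X, at 41.9% (35.6 to 48.3) against 30.8%. X also had the highest share of new peaks among these chromosomes, 44.0% (36.7 to 51.5) against the 30.6% of the list. Chromosome 7 had the widest gap the other way. Its control peaks had the highest median of the autosomes, 36 tags, yet 44.0% were kept (41.0 to 47.0), where the same tag deciles gave 55.6%. Smaller gaps in the same direction, with the interval below the share at the same deciles, were seen on chromosomes 1 (45.1% against 47.9%), 2 (37.8% against 42.0%) and 8 (40.5% against 44.2%). Tags are raw counts, and whether copy number moved these deciles was not tested.

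**Figure D4:**
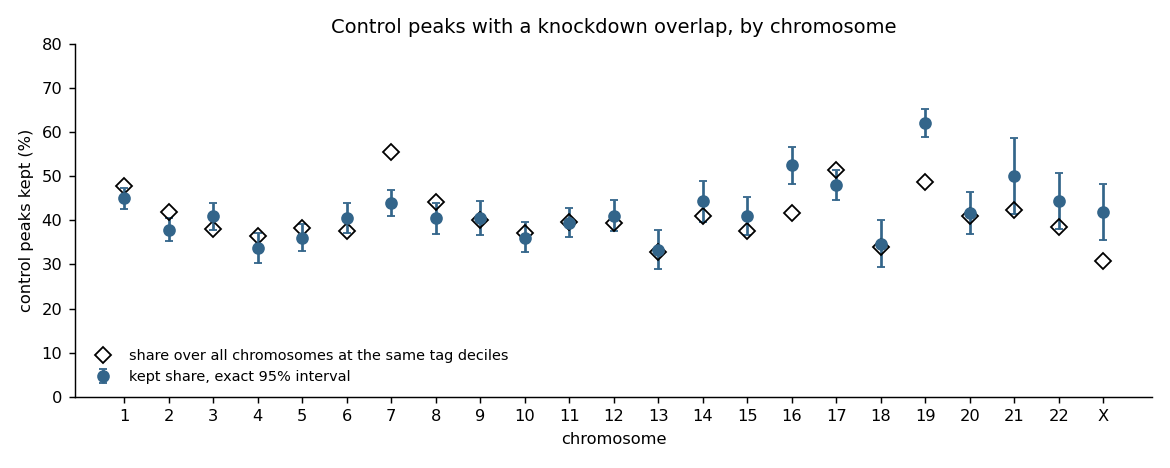
Share of control peaks kept (y axis, percent, exact 95% intervals) by chromosome (x axis), with the share that control peaks of all chromosomes in the same tag deciles had (open diamonds). Chromosome 19 stands at 62.1% against 48.7% and chromosome 7 at 44.0% against 55.6%.

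Where LSD1 was kept, its raw tags differed little between the lists at the median. Depth is not known, so tags were not corrected for it, and the ratio does not show how LSD1 signal compared. Over the 6962 pairs the ratio of knockdown to control tags had a median of 0.938 (0.929 to 0.944), with quartiles of 0.75 and 1.14 and a range of 0.204 to 4.36. Knockdown peaks were shorter in 4864 pairs (69.9%), with a median length ratio of 0.882, and their tags per kb were higher, at a median ratio of 1.06. The direction of the tag ratio therefore turns when it is taken per kb. In the 10 pairs with the most tags the ratio ran from 0.871 to 1.01, as in chr21:9825340-9827704 with 2704 and 2521 tags and chr1:91852415-91853259 with 516 and 515. Several of these places are near centromeres. These pairs were chosen among kept peaks, and control peaks with 1802, 1263 and 692 tags, described above, had no knockdown partner.

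Pairs at least 2-fold away from the median ratio were few, with 93 higher in knockdown (1.34%) and 191 lower (2.74%). A pair needs a listed peak in both libraries, so larger differences can fall among the 9771 missing and 3139 new peaks instead. Among the 1632 pairs of at least 100 tags in both peaks together, 4 were higher and 32 lower. The lower pairs were long control peaks beside short knockdown peaks, with medians of 1434 and 605 bp. Their tags per kb differed less, at a median ratio of 0.884. Of the 136 pairs with a control peak of at least 2000 bp, 29 were lower. In 5 equal groups ordered by control length, the median ratio went from 1.09 in the shortest to 0.787 in the longest, but this ordering uses the length of 1 list alone. In 5 equal groups ordered by the mean length of both peaks it lay between 0.944 and 0.958 in the 4 shorter ones and at 0.883 (0.869 to 0.907) in the longest, so that only the longest pairs lay apart.

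**Figure D5:**
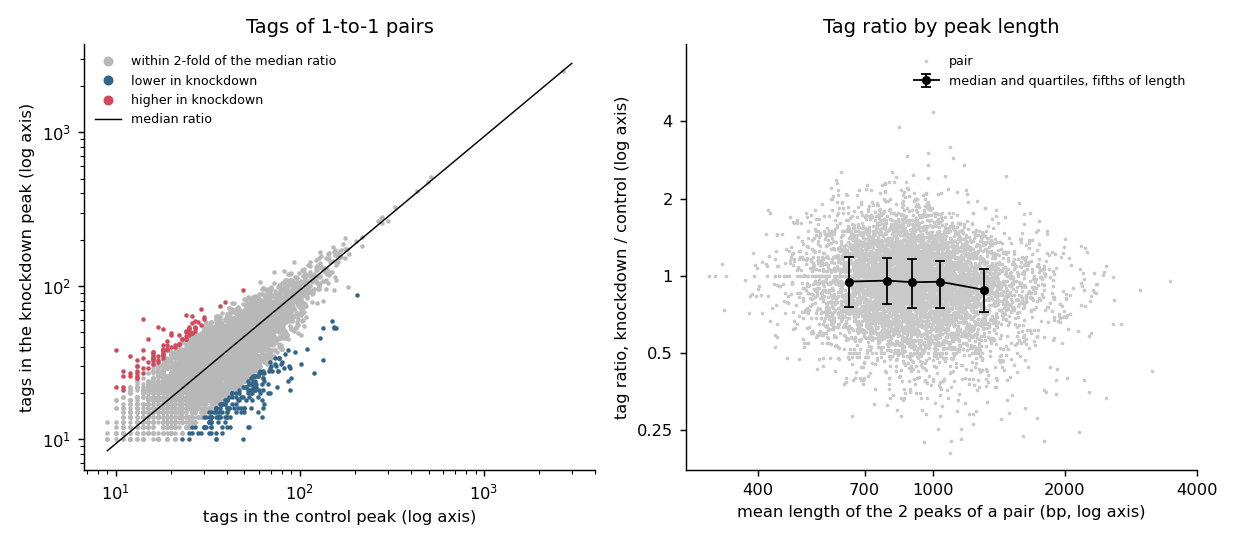
Left, tags of the knockdown peak against tags of the control peak (log axes) for 6962 pairs, with those at least 2-fold from the median ratio of 0.938 in colour. Right, the tag ratio (y axis, log) against the mean length of both peaks (x axis, bp, log) with medians and quartiles for 5 equal groups by length, which stay between 0.944 and 0.958 in the 4 shorter groups and reach 0.883 in the longest.

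Genes of the core histones lie in clusters and are read mainly while DNA is copied. Of the 10 pairs with the lowest ratio among those of at least 100 tags, 4 lay in histone gene clusters on chromosomes 1 and 6. At chr1:228644813-228647793 the control peak had 119 tags over 2981 bp and the knockdown peak 27 over 610 bp. At chr6:26271135-26273662 tags were 88 and 21, at chr6:26020255-26022835 they were 86 and 24, and at chr1:149858019-149860649 they were 101 and 31. Per kb of peak the ratios of these 4 were 1.11, 0.883, 0.817 and 1.29, so that the direction turned at both places on chromosome 1. The share of histone genes among all pairs was not measured, so no trait of histone genes is drawn from this.

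In the main histone cluster, chr6:26020255-26286218, 16 of 23 control peaks were kept, 7 were missing and 1 of 19 knockdown peaks was new. Over the whole control list 42.1% of peaks were kept, and 73.5% in the tag decile of 42 to 55 tags. That decile holds the median of the cluster, whose control peaks had 13 to 124 tags, so it does not match all of them. Control peaks there had a median of 51 tags over 1395 bp and 1309 tags in all, and knockdown peaks a median of 33 tags over 929 bp and 661 tags in all. The control peak chr6:26031818-26034823 met 2 knockdown peaks, with 124 tags against 31 and 34. All 23 control peaks were also LSD1 peaks at day 3, 8 were LSD1+8a peaks and 10 were SVIL peaks. These shares were 52.0%, 21.4% and 6.08% over all kept control peaks, and 48.7%, 5.66% and 2.90% over all missing ones. Most places of the histone cluster were thus kept, as were most control peaks of that tag decile. Its knockdown peaks had fewer tags and were shorter by the medians above, which take in missing and new peaks. The cluster was picked after pairs in it came up among those with the lowest ratio, so this partly follows from the choice. Over all pairs the median ratios were 0.938 for tags and 0.882 for length. Those are ratios within 1-to-1 pairs, an unlike measure.

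EXOC4, on chromosome 7, encodes a part of the exocyst, which tethers vesicles at the cell membrane. It held 12 control peaks with a median of 56 tags, of which 6 were kept and 6 missing. Over the whole control list 42.1% of peaks were kept. By tags the share was 52.1% in the decile of 31 to 36 tags and 73.5% in that of 42 to 55. It was 86.8% in the highest, of 55 to 2704 tags. The 12 peaks had 31 to 205 tags, so no single decile matches them. The kept peak chr7:133430965-133435599, the longest of the control list, had 205 tags over 4635 bp against 87 over 1678 bp, and chr7:133481429-133484334 had 153 against 53 tags. Control peaks there summed to 1096 tags and knockdown peaks to 320, where the whole lists summed to 539449 and 346367. All 12 were LSD1 peaks at day 3, 1 was an LSD1+8a peak and 4 were SVIL peaks. These shares were 52.0%, 21.4% and 6.08% over all kept control peaks, and 48.7%, 5.66% and 2.90% over all missing ones. Across EXOC4 LSD1 was listed in knockdown cells as fewer peaks, whose median was 1065 bp where that of the control peaks was 1448 bp. The gene was picked after its peaks came up among missing ones with many tags and among pairs with a low ratio. Fewer tags and fewer, shorter knockdown peaks partly follow from that choice. The whole knockdown list also had fewer and shorter peaks, 10248 against 16882, with median lengths of 769 and 834.5 bp.

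Among pairs of at least 100 tags, those with the highest ratio differed in kind. At chr17:60729473-60730307 tags went from 29 to 71 while the peak grew from 835 to 2104 bp, so that its tags per kb changed by a ratio of only 0.972. At chr9:108320018-108320921 tags went from 39 to 78 at nearly the same length, 904 and 916 bp, and the fold from 14.8 to 35.1. At chr19:49588169-49589056 tags went from 37 to 74 and the fold from 8.44 to 24.98. At the places on chromosomes 9 and 19 the added tags thus lay within nearly the same stretch. All 93 higher pairs together had a median length of 674 bp in control and 981 bp in knockdown.

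Summits, the positions of highest signal, were close within pairs. The overlap rule itself limits this distance, since only overlapping peaks were paired, with median lengths of 955 bp in control and 829 bp in knockdown. The median distance over pairs was 48 bp (46 to 50) and 5095 of 6962 (73.2%) lay within 100 bp, below the 300 bp of the shortest fragments selected for the libraries. Summits lay to the right in 3444 pairs and to the left in 3460. Distances shrank with tags, from a median of 59 bp in the lowest decile of summed tags to 28 bp in the highest. In 553 pairs (7.94%) the summits lay over 300 bp apart, and these were longer control peaks, with a median of 1219 bp against 937 bp. The largest shift was 2169 bp in chr2:240195810-240198650, where the control peak of 2841 bp met a knockdown peak of 782 bp. At chr16:30932873-30935123, among the pairs with the most tags, the summit moved by 708 bp while tags were 303 and 264 and the fold went from 29.6 to 67.3.

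Missing, kept and new places also differed in what was listed there at day 3 in control cells. LSD1 itself was listed at day 3 at 52.0% of kept and 48.7% of missing control peaks, and at 31.1% (29.5 to 32.7) of new peaks against 51.8% of kept knockdown peaks. LSD1+8a was listed at 21.4% of kept and 5.66% of missing control peaks, and at 8.51% of new peaks against 21.3% of kept knockdown peaks. SVIL was listed at 6.08% of kept and 2.90% of missing control peaks, and at 1.56% of new peaks against 5.89% of kept knockdown peaks. All 3 lists share the cell line and, for LSD1, the antibody.

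Among peaks with many tags the order changed for LSD1. In the upper 2 tag deciles, 458 of 670 missing control peaks were LSD1 peaks at day 3 (68.4%, 64.7 to 71.9). Of kept ones, 1608 of 2707 were (59.4%, 57.5 to 61.3). Peak length was not matched here, and the overlap rule favours long peaks. Above the upper tag quartile, 756 missing control peaks were over 1060 bp long and 133 were not, against 2114 and 1023 kept ones. LSD1+8a went the other way there, with 15.2% (12.6 to 18.2) of missing and 29.3% (27.6 to 31.1) of kept peaks. For SVIL the shares were 13.6% (11.1 to 16.4) and 10.4% (9.29 to 11.6), with intervals that overlap. In the knockdown list, 20 of 75 new peaks of these deciles were LSD1 peaks at day 3 (26.7%, 17.1 to 38.1), against 52.9% of 1975 kept ones. Most missing and most kept control peaks with many tags were places where LSD1 was again listed in control cells at day 3. Most new peaks with many tags were not. Whether length accounts for the difference between missing and kept peaks was not tested.

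Within the pairs the tag ratio followed the same lists. It had a median of 0.875 (0.861 to 0.891) over the 3613 pairs at an LSD1 peak of day 3 and 1.00 (0.986 to 1.00) over the other 3349, and it was lower at day 3 peaks in 10 of 10 deciles of summed tags. It was 0.985 (0.964 to 1.00) over 1486 pairs at an LSD1+8a peak of day 3 and 0.926 (0.914 to 0.933) over the others, and lower at LSD1+8a peaks in 0 of 10 deciles. SVIL peaks of day 3 covered 423 pairs, whose median ratio was 0.857 (0.829 to 0.889) where the others had 0.943, and it was lower in 8 of 8 deciles that could be compared. In 5 equal groups by the mean length of both peaks, the ratio at LSD1 peaks of day 3 ran from 0.845 to 0.897 and elsewhere from 0.939 to 1.00. Per kb of peak all these medians were above 1, at 1.03 at LSD1 peaks of day 3 against 1.10 elsewhere, 1.08 against 1.06 for LSD1+8a and 1.03 against 1.07 for SVIL, in the same order as the raw tags. The ratio at places of LSD1+8a at day 3 was thus not lower than at other kept places on either scale. Day 3 places were assigned by the control peak of each pair, and antibody and library differ between these lists, so the sizes are descriptions.

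Missing peaks were set about as densely along the chromosomes as kept ones. The median gap to the next peak of the control list was 31658 bp for missing and 30102 bp for kept peaks, and a neighbour lay within 25 kb of 44.38% and 44.49% of them. Close neighbours were a little more common among missing peaks, with 821 of 9771 (8.40%, 7.86 to 8.97) within 1 kb of another control peak against 6.96% (6.38 to 7.58) of kept peaks. For new peaks the share was 4.97% (4.24 to 5.79) and for kept knockdown peaks 4.56% (4.08 to 5.07). Measured to the other list, missing peaks were a median of 66664 bp away and 351 of them (3.59%) were within 1 kb, while new peaks were 36806 bp away and 205 (6.53%) were within 1 kb. The lists differ in number of peaks, which sets such distances. Few missing or new peaks thus lay right beside a peak of the other list.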

How the data were processed

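ChIP-seq peak lists were compared for LSD1 in SH-SY5Y cells at day 0 with a control shRNA and with an LSD1+8a shRNA, 1 library each, and 3 lists of control cells at day 3 served only to annotate them. Per the labels' protocols, chromatin was fixed in 1% formaldehyde for 10 minutes and sonicated to 300 to 800 bp, library fragments of 300 to 600 bp were kept, and 50 bp were read from 1 end. The submitters' processing notes name the tools CASAVA and Bowtie 1.0.0 and the builds hg19 and mm9. Chromosome 22 is in the lists, which mice lack, so positions were read as hg19. The authors called peaks per sample, 1 deposited list per library. The caller, its threshold, the inputs, any removal of duplicates and the depth are all not given in the sources used here. PCR copies are not independent molecules, so intervals cover counting error only.

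Per the file headers, each deposited row gives start, end, length, summit and tags. The deposited tags are raw whole-number counts, as their values show. The fold enrichment is the authors' ratio to a background that the headers do not state. The deposited score lost its column name and was used as a score without a unit, to rank and filter peaks. Folds are the authors' values and describe peaks within a list. Lists were matched to samples by the antibody, shRNA and stage in their names.

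Peaks were matched at a minimum overlap of 1 bp with Python 3.11.15, pandas 2.3.3, numpy 2.4.6 and scipy 1.17.1. Shares have Clopper-Pearson 95% intervals, and medians have exact order-statistic intervals. Tag, length and summit comparisons used 1-to-1 pairs. The code was tested on simulated lists with planted overlaps. No test between groups was made, since each has 1 library.

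The members, lists and settings were chosen with earlier results of these data known. Regions were named by rule: the 10 missing, new and kept peaks with the most tags, the 10 pairs of at least 100 tags with the highest and lowest ratio, the 5 largest summit shifts, and the 5 longest runs and fullest windows. The fold of 25, the runs and windows of kept peaks and all named genes were chosen after the values were seen. The chromosome of each named gene was checked against the RefSeq table of GRCh38, and its place in hg19 was not. The planned gene lists and cell line markers were not run, because no hg19 annotation was used here, so the identity of the line was not checked. Alternatives covered the overlap rule, summits, score and tag minimums, equal list sizes, chromosomes and clusters.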

Additional observations from a re-analysis of the deposited data

How the results depend on the processing

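The kept share of control peaks, 42.1%, was 39.1% with a reciprocal overlap of 50%, 44.2% with edges up to 1 kb apart, 38.5% with summits at most 300 bp apart, 55.4% with equal numbers of peaks taken from the top of each list by score and 49.2% with peaks of at least 20 tags. The kept share of knockdown peaks, 69.4%, became 64.5%, 71.4%, 63.5%, 55.7% and 77.6% in that order, 67.4% at a score of at least 100 and 68.1% without clusters (runs of at least 10 peaks with gaps of at most 25 kb). With lists of equal size the shares were nearly equal, as overlaps that are almost all 1-to-1 require. Leaving out SVIL, MRE11 and TNFRSF10D, an alternative chosen after seeing the data, gave 42.2% and 69.4%. The median tag ratio, 0.938, was 0.952 with the reciprocal overlap, 0.964 in the upper 50% by score, 0.979 at a score of at least 100, 0.947 with at least 20 tags, and 1.06 per kb of peak, which turns its direction. The median summit distance, 48 bp, was 36 bp in the upper 50%, 31 bp at a score of at least 100 and 45 bp with at least 20 tags. The median length of missing peaks, 752 bp, was 762 bp with the reciprocal overlap, 767 bp by summits, 996 bp at a score of at least 100 and 901 bp with at least 20 tags. The share of missing peaks within 1 kb of another control peak, 8.40%, was 6.23% with edges up to 1 kb apart, 3.28% at a score of at least 100 and 6.05% with at least 20 tags. The share of new peaks at an LSD1 peak of day 3, 31.1%, was 34.8% with the reciprocal overlap, 34.5% by summits, 37.4% at a score of at least 100 and 37.1% with at least 20 tags. Score and tag minimums leave fewer and longer peaks by construction, and the other causes were not tested. The other 19 values moved by less than their intervals. No paired analysis was possible because each group was 1 library. Depth limits all counts of missing and new peaks, since the reads of neither library are known.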
